A study of Mus musculus with 2 samples.

Results

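The genes of 6 laminin chains (*Lama4*, *Lama5*, *Lamb1*, *Lamb2*, *Lamb3* and *Lamc1*), the 2 nidogens (*Nid1* and *Nid2*) and perlecan (*Hspg2*) were compared between 2 mouse male germ cell lines. They were chosen by gene symbol, with earlier results of these data known. The list makes up 9 of the 14450 genes that had an unambiguous tag in either line. GC-1spg was made from type B spermatogonia of a mouse aged 10 days by transformation with pSV3-neo, and GC-2spd (ts) from spermatocytes of a mouse aged 6 weeks by transformation with the SV40 large T antigen. Both lines were kept in DMEM with FBS and with no other treatment, and GC-2spd (ts) is described as premeiotic and no longer able to differentiate. Each line gave 1 library, so differences between the lines have no replicate check, and every p-value compares these 2 libraries and not the lines.

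Laminins are secreted as trimers of an α, a β and a γ chain, joined through a long coiled coil, and their networks form the first layer of a basement membrane. Nidogens bind the laminin γ1 chain and type IV collagen and so link the networks, and perlecan is a large heparan sulfate proteoglycan of the same sheet. In the testis a basement membrane surrounds each seminiferous tubule, and spermatogonia sit on it. It is laid down by Sertoli and peritubular myoid cells.

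The assay was digital gene expression (DGE) tag profiling. *Nla*III cuts the cDNA at CATG, and the tag is CATG with the 17 bases that follow it. Ideally 1 tag is released per cDNA molecule, from the CATG site nearest the poly(A) tail (site 1 below, with sites counted from the 3′ end), so tag counts were not divided by length. A level is given in TPM, the tags of a gene scaled to a library of 1000000 clean tags, where 1 copy was worth 0.197 TPM in GC-1spg against 0.212 TPM in GC-2spd (ts), and tags with a single copy had been removed.

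The tags that carried most of the counts of each gene are shown here because each value below is a count of such tags. The capitals mark the *Nla*III site, and each tag reads 5′ to 3′ along the mRNA.
*Lama4*: CATGtagttgggccgttgaat
*Lama5*: CATGggcagggacacactccg
*Lamb1*: CATGgtgaaggaagcattaga
*Lamb2*: CATGggcgacgtgcgtcgggc
*Lamb3*: CATGactacattgaggagaga
*Lamc1*, site 1: CATGgaattttcctttgattc
*Lamc1*, site 2: CATGtgatgactgaacacttg
*Nid1*: CATGgtaaattgttaagctgt
*Nid2*, also matching antisense to its neighbour *Rtraf*: CATGgggttggcccagcgaag
*Hspg2*, site 1: CATGtccttggcagtgtcccc
*Hspg2*, site 2: CATGgcctgagccactgttct
On the genome build GRCm38 the tags of the α and β chains lay in coding sequence, except that of *Lamb3*, and the others lay in the 3′ UTR. The *Lama4* tag was at chr10:39106012-39106032 on the plus strand, in exon 37 of 38. The *Lama5* tag was at chr2:180176983-180177003 on the minus strand, in exon 78 of 79. The *Lamb1* tag was at chr12:31326601-31326621 on the plus strand, in exon 30 of 33, and the *Lamb2* tag at chr9:108489321-108489341 on the plus strand, in exon 29 of 33. On chromosome 1, the *Lamb3* tag was at chr1:193343657-193343677 on the plus strand and the *Lamc1* tags were at chr1:153219088-153219108 and chr1:153219625-153219645 on the minus strand. All 3 were in the last exon of their gene. The last exon also held the *Nid1* tag, at chr13:13512114-13512134, the *Nid2* tag, at chr14:19811619-19811639, and the *Hspg2* tags, at chr4:137570190-137570210 and chr4:137570079-137570099, all on the plus strand.

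The labelled germ cell type was checked against marker genes, and most of its markers were absent. Of 15 germ cell markers, 13 had no tag in either library, among them *Ddx4*, *Dazl*, *Kit*, *Stra8* and *Sycp3*, and the list summed to 65.3 TPM in GC-1spg against 14 TPM in GC-2spd (ts), nearly all from *Uchl1*. Both lines carried markers of somatic cells. Of 10 Sertoli cell markers 7 were listed (318 and 97.3 TPM in sum), with *Wt1* at 620 and 0 tags, *Clu* at 902 and 262, *Gata4* at 29 and 138, *Sox9* at 29 and 46, and *Fshr*, *Cldn11* and *Rhox5* at 0 in both. All 5 peritubular myoid markers were listed (13 and 122 TPM in sum), mostly from *Acta2* at 50 and 555 tags. Of the rest, *Cnn1* had 5 and 15 tags and *Des* 11 and 4. *Myh11* and *Tagln* had 0 in GC-1spg, and 2 and 3 tags in GC-2spd (ts). Fibroblast markers were the highest list, at 3007 and 1615 TPM with 7 of 9 listed and *Lum* and *Thy1* at 0. Within it, *Col1a1* had 10465 and 2425 tags, *Fn1* 2351 and 1211, *Dcn* 710 and 2, and *Pdgfra* 85 and 74. *Vim* rose from 984 to 2897 tags, *Col1a2* from 605 to 907 and *Col3a1* from 50 to 120. Of 7 Leydig cell markers 3 were listed (0.789 and 40.8 TPM in sum), nearly all from *Nr5a1* at 0 and 188 tags, with *Hsd3b1*, *Cyp17a1*, *Insl3* and *Lhcgr* at 0, and of 5 endothelial markers only *Kdr* was (0.394 and 0.846 TPM), with *Pecam1*, *Cdh5*, *Tek* and *Vwf* at 0. The part of these marker levels in the values below was not tested, and in bulk RNA fewer cells of a type cannot be told apart from less RNA per cell.

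Of the 9 genes, 2 were called higher in GC-2spd (ts) (*Nid1* and *Lamb2*), 2 were called lower (*Lama5* and *Lamb1*) and 5 were not called. Over all genes tested, 19.5% were called, 11.7% as higher and 7.84% as lower. A gene was called by the two-sided Audic-Claverie test, which compares the counts of 2 libraries, with false discovery rates (FDR, Benjamini-Hochberg) up to 0.001 and a log2 ratio of at least 1 in size. The median log2 ratio of the 9 genes was 0.20, with 0.5 tags added to each count, against 0.13 for all genes.

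**Figure D1:**
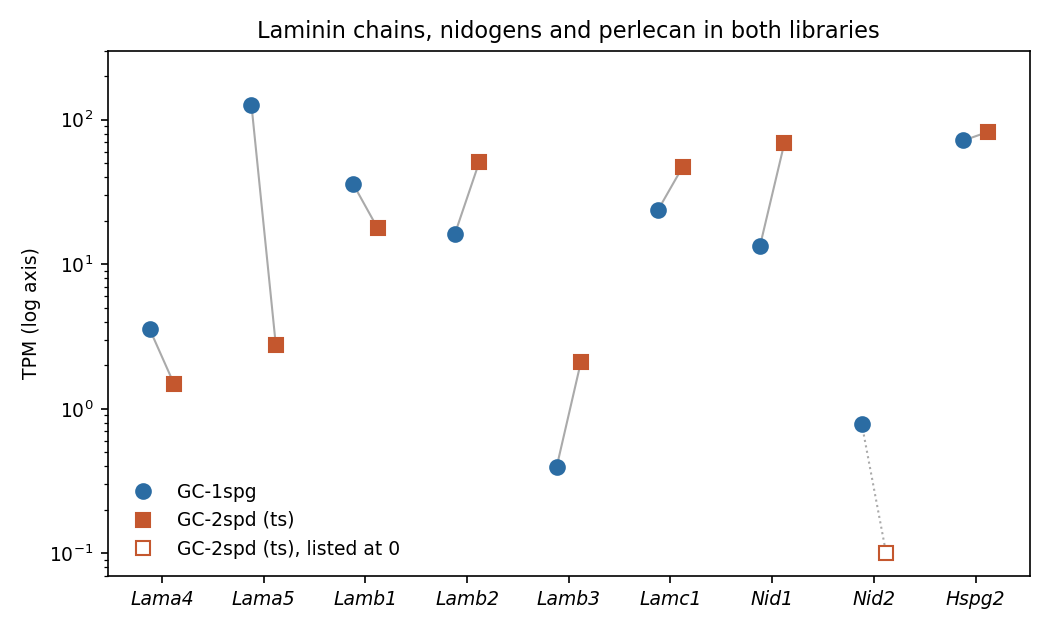
The level of each gene in TPM, on a log axis, in the 1 library of GC-1spg and the 1 library of GC-2spd (ts). *Lama5* fell from 127 to 2.75 TPM, and *Nid1* rose from 13.4 to 69 TPM.

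*Lama5*, the α chain of the laminins of most adult epithelia, showed the widest difference among the 8 genes listed in both libraries. It had 642 tags (127 TPM) in GC-1spg and 13 tags (2.75 TPM) in GC-2spd (ts), which is 46-fold lower in the latter. Its log2 ratio was -5.52, with an exact 95% interval from -6.44 to -4.74 (FDR of 1.59e-159, Audic-Claverie test). The gene lies at chr2:180176373-180225859 on the minus strand.

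Most *Lama5* tags came from site 1 in both libraries. The site 1 tag shown above had 502 copies in GC-1spg against 13 in GC-2spd (ts), giving a log2 ratio of -5.17 (95% interval -6.09 to -4.38). A further 22 tags, all within the coding sequence and 1 of them a version of the site 1 tag with 1 substitution, gave 140 copies in GC-1spg and none was listed in GC-2spd (ts). With single-copy tags removed, tags this low would not have been listed at the site 1 ratio, so their absence adds nothing to it. The gene-level log2 ratio of -5.52 includes these 140 copies and so is wider than the site 1 ratio.

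*Lama4*, the α chain of the laminins of vessels and mesenchyme, was low in both libraries. A single tag had 18 copies (3.55 TPM) in GC-1spg and 7 copies (1.48 TPM) in GC-2spd (ts). The log2 ratio of -1.26 had an interval from -2.76 to 0.07 and was not called (FDR of 0.0863, Audic-Claverie test), so a difference was not detectable at this depth. *Lama4* lies at chr10:38965515-39110188 on the plus strand.

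The 2 α chains together had 660 tags (130 TPM) in GC-1spg and 20 tags (4.23 TPM) in GC-2spd (ts). *Lama5* gave 97.3% of these tags in GC-1spg (exact binomial 95% interval 95.7% to 98.4%) and 65% in GC-2spd (ts) (40.8% to 84.6%). *Lama1* and *Lama2*, 2 other α chains, had no unambiguous sense tag in either library.

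*Lamb1* and *Lamb2* moved in opposite directions. *Lamb1*, the β chain found in most basement membranes, had 182 tags (35.9 TPM) in GC-1spg and 84 tags (17.8 TPM) in GC-2spd (ts). It fell by 1.01 on the log2 scale, with an interval on the ratio from -1.40 to -0.63 (FDR of 1.97e-07, Audic-Claverie test), and was only just past the fold threshold, at 2.02-fold. The call was lost with exact matches only, and with edgeR's exact test at an assumed biological coefficient of variation of 0.1, 0.2 or 0.4 (FDR of 0.00152, 0.114 and 0.797). *Lamb2*, the β chain known from the neuromuscular junction and the kidney glomerulus, had 82 tags (16.2 TPM) in GC-1spg and 241 tags (51 TPM) in GC-2spd (ts), 3.15-fold more. Its log2 ratio was 1.66 (95% interval 1.29 to 2.04, FDR of 9.72e-21, Audic-Claverie test), and its call was lost with edgeR's exact test at an assumed coefficient of 0.2 or 0.4 (FDR of 0.00357 and 0.44). *Lamb1* lies at chr12:31265234-31329644 and *Lamb2* at chr9:108479736-108490530, both on the plus strand.

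The site 1 tag and the summed other tags of each of these genes had ratios of the same sign, with an interval that included 0 for the other *Lamb1* tags. For *Lamb1*, the site 1 tag went from 164 to 77 copies (log2 ratio -0.99, interval -1.40 to -0.59) and its 7 other tags from 18 to 7 copies (log2 ratio -1.26, interval -2.76 to 0.07). For *Lamb2*, the site 1 tag went from 42 to 117 copies (log2 ratio 1.58, interval 1.06 to 2.12) and its 15 other tags from 40 to 124 copies (log2 ratio 1.73, interval 1.21 to 2.29). All 7 *Lamb2* tags with at least 10 copies over both libraries had a ratio above 0. Tags of 1 gene come from the same libraries and are not replicates.

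*Lamb3*, a β chain of the laminin that anchors the epidermis, was near the lower limit of detection. Its single tag had 2 copies (0.394 TPM) in GC-1spg and 10 copies (2.12 TPM) in GC-2spd (ts). The interval on the log2 ratio of 2.42 ran from 0.19 to 5.65, and the gene was not called (FDR of 0.0583, Audic-Claverie test). *Lamb3* lies at chr1:193207699-193343878 on the plus strand.

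The make-up of the β chain tags turned over between the libraries. *Lamb1* gave 68.4% of them in GC-1spg (95% interval 62.5% to 74%) and 25.1% in GC-2spd (ts) (20.5% to 30.1%). *Lamb2* gave 30.8% (25.3% to 36.8%) and 71.9% (66.8% to 76.7%). The sum of the β chains differed far less, at 52.4 and 70.9 TPM (log2 ratio 0.43, interval 0.20 to 0.67).

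**Figure D2:**
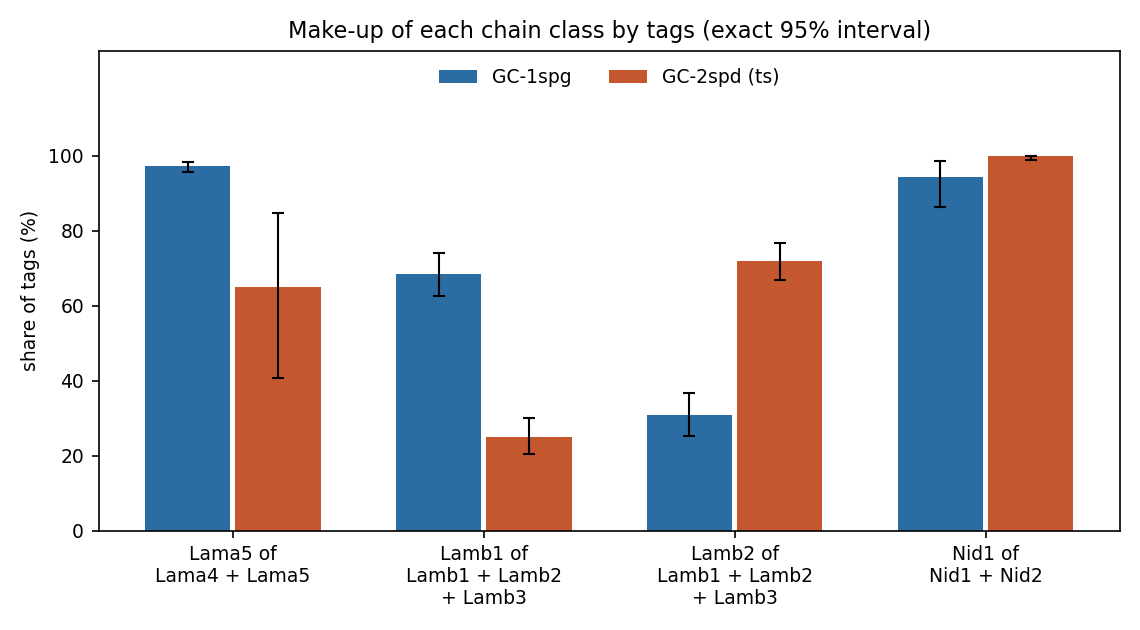
Shares of the tags of related chains in GC-1spg and GC-2spd (ts), in percent of the tags of each family, with exact 95% binomial intervals. The *Lamb1* share was 68.4% in GC-1spg against 25.1% in GC-2spd (ts), and the *Lamb2* share was 30.8% against 71.9%.

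*Lamc1*, the γ chain of most laminins and the one that nidogens bind, had 121 tags (23.9 TPM) in GC-1spg and 223 tags (47.2 TPM) in GC-2spd (ts). The log2 ratio was 0.98 (95% interval 0.66 to 1.32). The gene passed the FDR (5.13e-09, Audic-Claverie test) but lay below the fold threshold and was not called. *Lamc1* lies at chr1:153218922-153332786 on the minus strand.

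The gene-level value of *Lamc1* averaged over tags that differed in their ratio. The site 1 tag, 187 bases from the end of the transcript, had 70 copies in GC-1spg against 57 in GC-2spd (ts), giving a log2 ratio of -0.19 with an interval from -0.73 to 0.33. The site 2 tag, 724 bases from the end and in the same 3′ UTR, had 19 and 85 copies, a log2 ratio of 2.26 with an interval from 1.53 to 3.06. Site 1 thus held 57.9% of the *Lamc1* tags in GC-1spg against 25.6% in GC-2spd (ts).

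A coding-sequence tag of *Lamc1* at site 13 had 15 and 32 copies (log2 ratio 1.19, interval 0.27 to 2.19). All *Lamc1* tags other than that at site 1 went from 51 to 166 copies, a log2 ratio of 1.80 with an interval from 1.34 to 2.29. No annotated *Lamc1* transcript has site 2 as its last CATG.

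**Figure D3:**
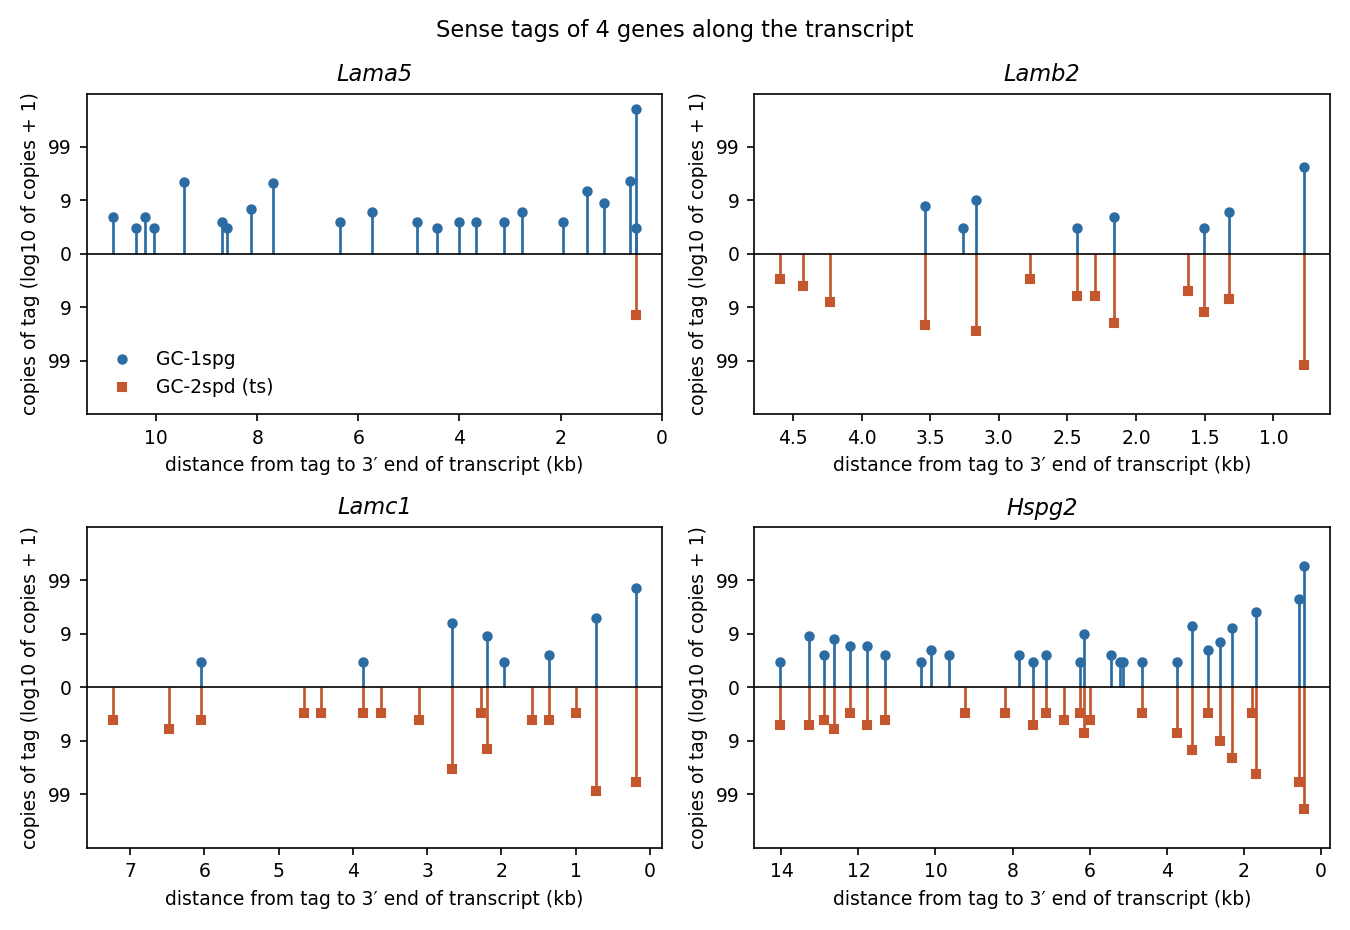
Copies of each sense tag of *Lama5*, *Lamb2*, *Lamc1* and *Hspg2* along the annotated transcript that holds most of them, on a log10 axis of copies plus 1, with GC-1spg upward and GC-2spd (ts) downward. The 13 copies of *Lama5* in GC-2spd (ts) sit at site 1 alone, whereas *Lamc1* has its highest GC-2spd (ts) tag at site 2, and 2 *Lamb2* tags and 1 *Lamc1* tag of other transcripts are not drawn.

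*Nid1*, the nidogen that binds laminin γ1 with high affinity, rose the most among the called genes. It had 68 tags (13.4 TPM) in GC-1spg and 326 tags (69 TPM) in GC-2spd (ts), 5.14-fold more. The log2 ratio was 2.36 (95% interval 1.98 to 2.76, FDR of 4e-44, Audic-Claverie test), and the call was lost with edgeR's exact test at an assumed coefficient of 0.4 only (FDR of 0.128). Nearly all of these tags were the site 1 tag shown above, which lies 156 bases from the end of the transcript and had 68 and 317 copies. *Nid1* lies at chr13:13437551-13512269 on the plus strand.

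*Nid2*, the second nidogen, had 4 unambiguous sense tags (0.789 TPM) in GC-1spg and was listed at 0 in GC-2spd (ts), which was not called (FDR of 0.132, Audic-Claverie test). This count leaves out the tag shown above at site 1 of *Nid2*, 169 bases from the end, which also matches antisense to *Rtraf*. With its version that carries 1 substitution, that tag had 46 copies in GC-1spg against 9 in GC-2spd (ts), giving a log2 ratio of -2.25 (interval -3.47 to -1.20). Where sense matches were preferred over antisense matches, *Nid2* had 50 and 9 tags and was called lower (log2 ratio -2.37, interval -3.58 to -1.33, FDR of 6.38e-07, Audic-Claverie test). *Nid2* lies at chr14:19751265-19811787 on the plus strand.

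The nidogen tags were thus mostly those of *Nid1* in GC-2spd (ts), while the *Nid1* share in GC-1spg turned on the shared tag. Without it, *Nid1* gave 94.4% of nidogen tags in GC-1spg (95% interval 86.4% to 98.5%) and 100% in GC-2spd (ts) (98.9% to 100%). With sense matches preferred the shares were 57.6% and 97.3%.

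*Hspg2*, perlecan, was the gene with the most even level. It had 364 tags (71.8 TPM) in GC-1spg and 389 tags (82.3 TPM) in GC-2spd (ts). The log2 ratio was 0.20, its interval ran from -0.01 to 0.41, and it was not called (FDR of 0.12, Audic-Claverie test). *Hspg2* lies at chr4:137468769-137570630 on the plus strand.

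The *Hspg2* tags were spread over 36 sequences, 27 of them listed in GC-1spg, 25 in GC-2spd (ts) and 16 in both. The site 1 tag had 187 copies in each library (log2 ratio 0.10, interval -0.20 to 0.40) and the site 2 tag 45 and 58 copies (log2 ratio 0.47, interval -0.12 to 1.06). Of 9 *Hspg2* tags with at least 10 copies, 6 had a ratio above 0 and 3 below.

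**Figure D4:**
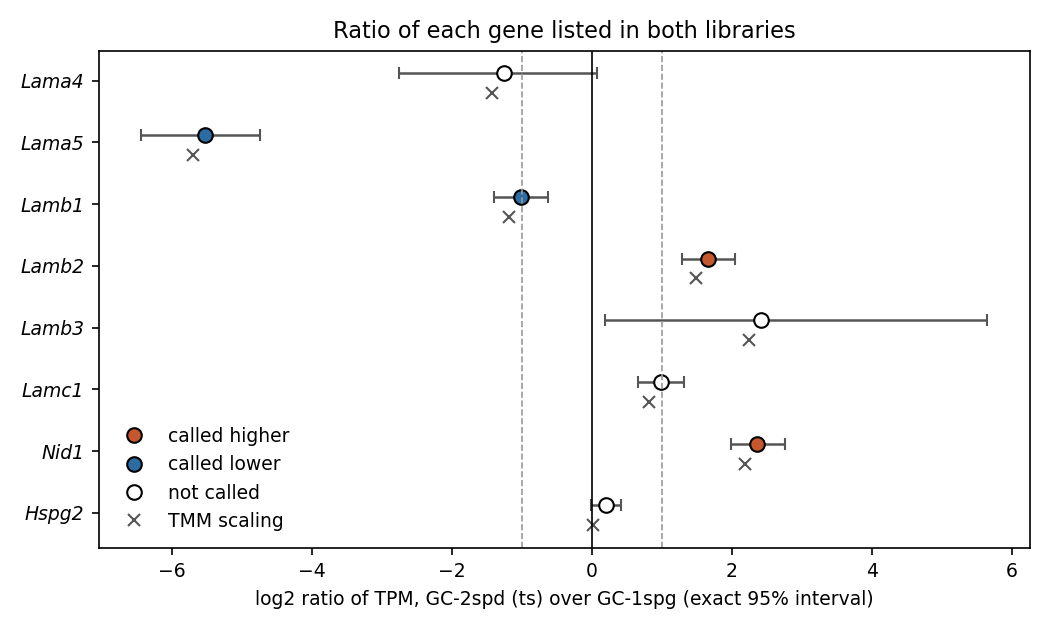
The log2 ratio of TPM, GC-2spd (ts) over GC-1spg, for the 8 genes listed in both libraries, with exact 95% intervals, dashed lines at the fold threshold and crosses for TMM scaling. *Lama5* at -5.52 and *Nid1* at 2.36 lie well outside the lines, *Lamb1* at -1.01 and *Lamc1* at 0.98 lie beside them, and *Hspg2* at 0.20 lies near 0.

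The order of the levels within each library differed between the lines. In GC-1spg it ran from *Lama5* through *Hspg2*, *Lamb1*, *Lamc1*, *Lamb2*, *Nid1*, *Lama4* and *Nid2* to *Lamb3*. Neighbours in this order differed beyond counting error, by an exact 95% binomial interval on each pair, except *Lamb2* and *Nid1* (82 and 68 tags) and *Nid2* and *Lamb3* (4 and 2 tags). In GC-2spd (ts) the order ran from *Hspg2* through *Nid1*, *Lamb2*, *Lamc1*, *Lamb1*, *Lama5*, *Lamb3* and *Lama4* to *Nid2*. Neighbours not told apart there were *Lamb2* and *Lamc1* (241 and 223 tags), *Lama5* and *Lamb3* (13 and 10 tags) and *Lamb3* and *Lama4* (10 and 7 tags). The order turned with the counting. With sense matches preferred *Nid2* (50 and 9 tags) lay above *Lama4* (18 and 7 tags) in both libraries. By site 1 tags alone, *Nid1* (68 copies) lay above *Lamb2* (42 copies) in GC-1spg. In GC-2spd (ts) the site 1 tags put *Nid1* (317 copies) above *Hspg2* (187 copies), and *Lamc1* (57 copies) below *Lamb1* (77 copies).

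Summed over the 9 genes, the libraries differed little, with 1483 tags (292 TPM) in GC-1spg and 1293 tags (274 TPM) in GC-2spd (ts) and a log2 ratio of -0.10 (interval -0.20 to 0.01). *Lama5* decided that sum. Without it the other 8 genes had 841 and 1280 tags, a log2 ratio of 0.71 with an interval from 0.58 to 0.83. The 6 laminin chains alone had 206 and 122 TPM (log2 ratio -0.76, interval -0.90 to -0.61), and without *Lama5* they had 79.8 and 120 TPM (log2 ratio 0.58, interval 0.40 to 0.77).

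Another 80 genes of basement membranes were counted as lists, and 69 of them had a tag, with *Lama1*, *Lama2* and *Lamc3* among those that had none. Of the 69, 11 were called higher and 13 lower, which is 34.8% of those listed, against 19.5% of all genes. A call is more likely at a higher tag count, and these shares were not matched for it. The lists were described by counts and medians only, and no list test was run.

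None of the type IV collagens, the second network of the basement membrane, was called, with 5 of 6 chains listed and a median log2 ratio of -0.21. *Col4a1*, a chain of the ubiquitous network, had 424 and 393 tags (log2 ratio -0.01, interval -0.21 to 0.19). Its partner *Col4a2* had 743 and 592 tags (log2 ratio -0.23, interval -0.38 to -0.07). *Col4a5* had 87 and 70 tags, *Col4a4* had 6 and 2 tags, *Col4a6* had 2 and 15 tags (FDR of 0.00395, Audic-Claverie test) and *Col4a3* had none.

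Of 20 other basement membrane components, 15 were listed, with 3 called higher, 1 lower and a median log2 ratio of 0.10. *Fbln2*, a fibulin that binds nidogen and laminin, rose from 347 to 1968 tags (log2 ratio 2.61), whereas the related *Fbln1* fell from 450 to 16 tags (log2 ratio -4.71). *Ntn4*, a netrin that binds the laminin γ1 chain, rose from 39 to 120 tags (log2 ratio 1.72). *Col15a1*, a collagen found next to basement membranes, was listed at 0 in GC-1spg and had 72 tags in GC-2spd (ts).

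Of 15 receptors for laminin and other basement membrane proteins, all were listed, with 2 called higher, 8 lower and a median log2 ratio of -1.96. The integrin subunit *Itgb1*, shared by most laminin-binding integrins, rose from 929 to 2194 tags (log2 ratio 1.34). The syndecans *Sdc1*, from 912 to 154 tags (log2 ratio -2.46), and *Sdc4*, from 802 to 293 tags (log2 ratio -1.35), fell, as did the collagen receptor *Ddr1*, from 448 to 197 tags (log2 ratio -1.08). The glypican *Gpc1* rose from 38 to 78 tags (log2 ratio 1.14, or 0.97 with TMM scaling).

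The other 5 receptors that were called lower are named here after their values were seen. They were the laminin-binding α integrins *Itga3* (387 and 92 tags), *Itga6* (205 and 27 tags) and *Itga7* (351 and 11 tags), the laminin-binding subunit *Itgb4* (59 and 8 tags), and *Bcam* (85 and 13 tags), a receptor for laminin α5. *Dag1*, dystroglycan, had 232 and 321 tags (log2 ratio 0.57) and was not called.

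Of 20 genes for synthesis, secretion and assembly, all were listed, with 4 called higher, none lower by the Audic-Claverie test, and a median log2 ratio of 0.31. The collagen lysyl hydroxylases *Plod3* (519 to 1173 tags, log2 ratio 1.28) and *Plod1* (90 to 195 tags, log2 ratio 1.22) rose. *Pomgnt1*, which extends the sugar chain through which dystroglycan binds laminin, rose from 95 to 380 tags (log2 ratio 2.10).

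Of 16 proteases and heparan sulfate enzymes, 14 were listed, with 2 called higher, 4 lower and a median log2 ratio of -0.83. The metalloproteinase *Mmp2* rose from 454 to 1586 tags (log2 ratio 1.91), and *Mmp14*, which activates it at the cell surface, rose from 41 to 363 tags (log2 ratio 3.25). *Adamts1* fell from 620 to 231 tags (log2 ratio -1.32), and the plasminogen activator *Plat* fell from 357 to 67 tags (log2 ratio -2.31). *Sulf1*, a heparan sulfate sulfatase, had 176 tags in GC-1spg and was listed at 0 in GC-2spd (ts).

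**Figure D5:**
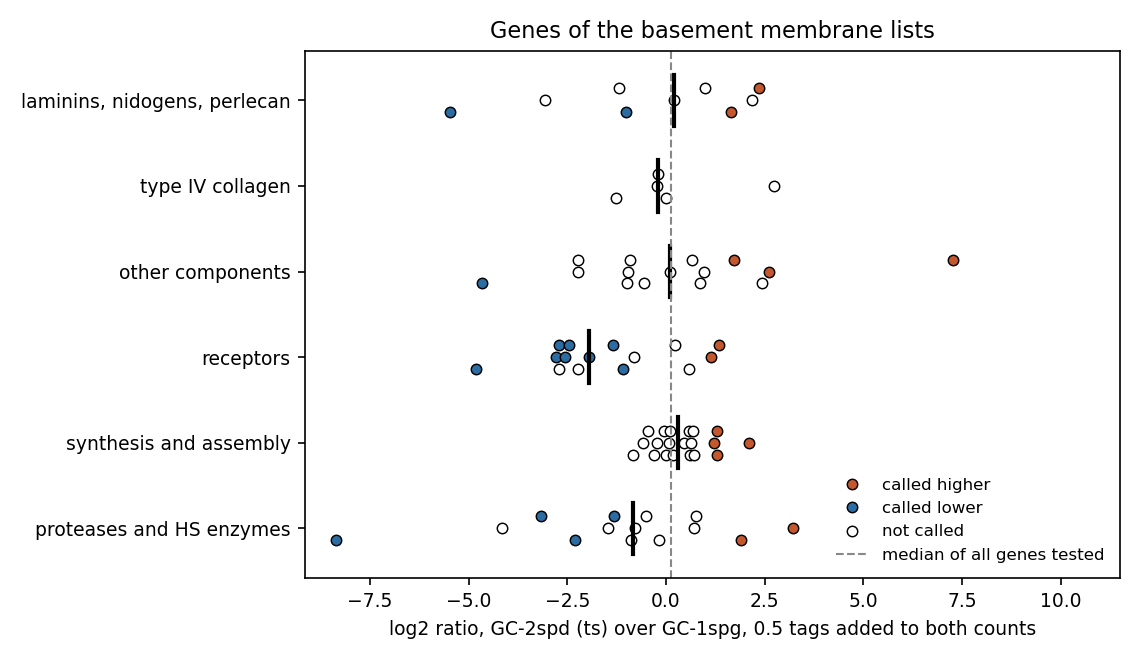
Log2 ratios of the listed genes of each basement membrane list, with 0.5 tags added to each count, GC-2spd (ts) over GC-1spg, with a bar at each median (HS, heparan sulfate). The receptors have a median of -1.96, and the synthesis genes a median of 0.31.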

How the data were processed

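DGE tags were measured in 1 library each of GC-1spg and GC-2spd (ts), with 5072149 and 4726808 clean tags. The authors removed adaptor, low-quality and single-copy tags and deposited the copy number (raw count) and the TPM (copies scaled to 1000000 clean tags) of each tag. Their UniGene matches were left aside.

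Tags were matched here to the CATG sites of the GENCODE M21 transcripts (GRCm38), with at most 1 mismatch and exact matches first. Unambiguous sense copies were summed per gene, and 54.7% and 57.9% of clean tags were of this kind. Genes were called by the Audic-Claverie test with Benjamini-Hochberg adjustment over 14450 genes, with 0.01 TPM for 0. edgeR's quasi-likelihood test needs replicates and could not be fitted, so edgeR's exact test with an assumed biological coefficient of variation (BCV) served as an alternative, beside other matching, scaling and filters. Intervals are exact and cover counting error only. Since single-copy tags were removed, no bound was set for a gene listed at 0. The script was tested on simulated data. The tools were edgeR 4.0.16 in R 4.3.3, and scipy 1.17.1, pandas 2.3.3, numpy 2.4.6 and matplotlib 3.10.9 in Python 3.11.15.

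The genes and lists were chosen with earlier results of these data known. The text names all 9 genes, *Lama1*, *Lama2*, *Lamc3*, the type IV collagens and, per further list and direction, up to 3 called genes with the most tags. *Dag1*, 5 further receptors and the markers were named outside this rule, and 1 gene that the rule names is not reported here.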

Additional observations from a re-analysis of the deposited data

Results flagged for a closer look

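Tags outside the sense counts were listed for 5 of the genes above 3 copies. Antisense tags of *Lamb2* had 7 copies in GC-2spd (ts). Antisense tags of *Lamc1* had 31 copies in GC-1spg against 52 in GC-2spd (ts), of which 19 and 24 came from 1 tag at the CATG of site 1. Antisense tags of *Nid1* had 30 copies in GC-2spd (ts), of which 18 came from the CATG of site 1, where none was listed in GC-1spg. Antisense tags of *Hspg2* had 21 and 13 copies. The tag that *Nid2* shares with *Rtraf* had, with its 1-substitution version, 46 copies in GC-1spg against 9 in GC-2spd (ts). CATG reads the same on both strands, and 13 of the 19 antisense tags of these genes lay at a CATG whose sense tag was also listed, with 55 and 88 copies. The cause was not tested.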

How the results depend on the processing

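The values rest on 1 library per line, and counts below about 20 tags (*Lama4*, *Lamb3*, *Nid2*, and *Lama5* in GC-2spd (ts)) gave wide intervals. *Lama5* was called lower under all 15 alternatives. With edgeR's exact test the genes called higher numbered 1 (*Nid1*) at a BCV of 0.2 and 0 at 0.4, and those called lower 1 (*Lama5*) at 0.1, 0.2 and 0.4. The lists then had 5 genes higher at 0.2, and 1 higher and 3 lower at 0.4. With exact matches only, *Lamb1* came just short of the fold threshold and the genes called lower numbered 1, and with sense matches preferred they numbered 3, with *Nid2*. A further alternative kept only tags at the last CATG of any annotated transcript of their gene, which adds some tags to the site 1 tags above. With it, *Lamc1* turned to -0.10, and the *Lamb1* share of β chain tags was 75.2% in GC-1spg against 35.1% in GC-2spd (ts). With sense matches preferred the *Nid1* shares were 57.6% and 97.3%. TMM scaling moved the median log2 ratio by -0.17, and 47.2% of calls were then higher, against 59.8% as reported (48% with median of ratios scaling). The 4 called genes were the same under these scalings. No paired analysis was possible because each line has 1 library.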

Other observations

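Of the sense or shared tags of these genes, 7 differed from the reference by 1 substitution, counted here from 1 at the C of CATG, and 1 further *Lamc1* tag, shared with *Phlda3*, is left out because its substitution had more than 1 possible position. For 2 of them the reference tag was listed in the same library at a far higher level: *Lama5* A12C had 2 copies beside 502, and *Nid2* T8G had 2 copies beside 44. For the other 5 it was not listed in the same library, and 4 of these were in *Hspg2*. *Hspg2* G13A had 5 copies in GC-1spg and none listed in GC-2spd (ts), where the reference tag had 2. *Hspg2* T10C had 3 copies in GC-1spg, and the reference tag had 3 in GC-2spd (ts), while T16C had 2 copies in GC-2spd (ts) and the reference tag 2 in GC-1spg. *Hspg2* T13C and *Lamb1* A11G, each with 2 copies in GC-1spg, remove the CATG that follows, and the tag of that CATG had 2 copies in GC-2spd (ts) in each gene. Counts this low allow no test between the libraries.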
